A study of Mus musculus with 6 samples.

Results

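The insulin-like growth factor (IGF) family was examined in mouse osteoblasts that received corticosterone, through its ligand genes *Igf1* and *Igf2*, its receptor genes *Igf1r* and *Igf2r*, and its binding protein genes *Igfbp2* to *Igfbp7*. Members were taken by gene symbol. Of the 10 symbols, 9 were matched to an Ensembl identifier among the 24016 genes of the table, and *Igfbp3* was not analysed here. The cells were MC3T3-E1 subclone 4, an established line of bone-forming precursors derived from mouse skull bone that lays down bone-like matrix when it differentiates. All cultures were of wild-type genotype and had differentiated for 6 days, with 10 mM β-glycerophosphate and 50 μg/ml ascorbic acid as inducers, and the sample labels place 10 nM calcitriol in the medium of all. Of the 6 RNA-seq libraries, 3 came from cultures given vehicle and 3 from cultures kept for 24 h with corticosterone at 100 nM, the glucocorticoid that mouse adrenals release. All values come from 1 clonal line in culture.

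IGF-I and IGF-II are small peptides that act on the IGF-I receptor, a tyrosine kinase that signals through insulin receptor substrates, phosphoinositide 3-kinase and AKT. The IGF-II receptor, which also carries mannose 6-phosphate-tagged enzymes, takes IGF-II to lysosomes. Binding proteins hold the peptides outside the cell, and proteases that cut the binding proteins release them. In bone, osteoblasts secrete IGF-I and several binding proteins, store part of them in the matrix and respond to the peptides with growth and matrix production.

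The libraries held between 16020401 and 25638645 reads on genes, fewer in each corticosterone library than in any vehicle library. The table gives read counts divided by 1 factor per library, called normalized counts here, and a gene with 3 reads, the floor used below, reached 2.32 to 3.84. The response genes *Tsc22d3* and *Fkbp5* were higher in all 3 corticosterone libraries, with log2 fold changes of 1.49 and 2.46. All 9 osteoblast marker genes had at least 48 reads in every library, and 8 of them fell with corticosterone while *Spp1* rose. Of markers of other cells, the adipocyte genes *Fabp4* and *Plin1* summed to between 7.72 and 21.1 normalized counts with vehicle and between 108 and 133 with corticosterone, nearly all from *Fabp4*, while 3 more adipocyte markers were not analysed here. The chondrocyte markers, nearly all from *Col2a1*, summed to 1131 to 1447 with vehicle and 692 to 839 with corticosterone, while *Matn1* stayed under the floor. Macrophage and osteoclast markers summed to 2049 to 2210 with vehicle and 1611 to 1659 with corticosterone, most of it from *Ctsk*, with *Acp5* at 0 in 4 of 6 libraries. *Csf1r* had 12 to 38 reads per library and *Lyz2* 153 to 304, while *Ptprc* was not analysed here. Endothelial markers summed to at most 12.8 and skeletal muscle markers to at most 40.7. The cultures were of 1 clonal line, and these sums do not show that other cell types were present. The part of these genes in the results was not tested. In bulk RNA, fewer cells that express a gene cannot be told apart from less RNA per cell.

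On the deposited scale, 6 of the 9 IGF family members were called, with modest changes, and *Igfbp4* and *Igf1r* kept the call in all 20 alternative fits. Of these 20, 1 left out a filter that had removed 0 genes, so it repeats the main fit and is no separate check. The threshold was that of the study, an adjusted p under 0.05 with an absolute log2 fold change over 1. The study applied it to DESeq2 results, and here it was applied to the limma fit. In that fit 0 members passed it in either direction, against 1.38% of all genes higher and 1.4% lower. On the adjusted p alone (limma, Benjamini-Hochberg over 24016 genes), 4 of the 9 members rose, namely *Igfbp4*, *Igf1r*, *Igfbp7* and *Igf2r*, where 8.49% of all genes were higher, and of these *Igf2r* had no rise left after quantile normalization (log2 fold change -0.0010). *Igfbp5* and *Igf1* fell, 2 of the 9, where 8.2% of all genes were lower. *Igf1* lost its call in 5 of 6 fits with 1 library left out, and *Igfbp5* in 2 of the 14 other alternative fits. *Igfbp2*, *Igfbp6* and *Igf2* did not pass. Groups did not overlap in the 6 called members, and 29.6% of all genes showed such separation. All members other than *Igf2* had a mean normalized count of at least 10, and among the 13880 genes with such a mean, 14.2% were higher and 13.5% lower on the adjusted p, and 43.8% had groups that did not overlap. The median log2 fold change of the 8 members without *Igf2*, which had too few reads for one, was 0.08, compared with -0.01 over all genes. Their median absolute log2 fold change was 0.25, compared with 0.30 over all genes and 0.16 among genes with a mean of at least 10. For 3 against 3 libraries, the smallest p of a two-sided exact permutation test is 0.1, and each of the 6 called members reached it. Any gene whose groups do not overlap reaches it, so this adds nothing to that separation.

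**Figure D1:**
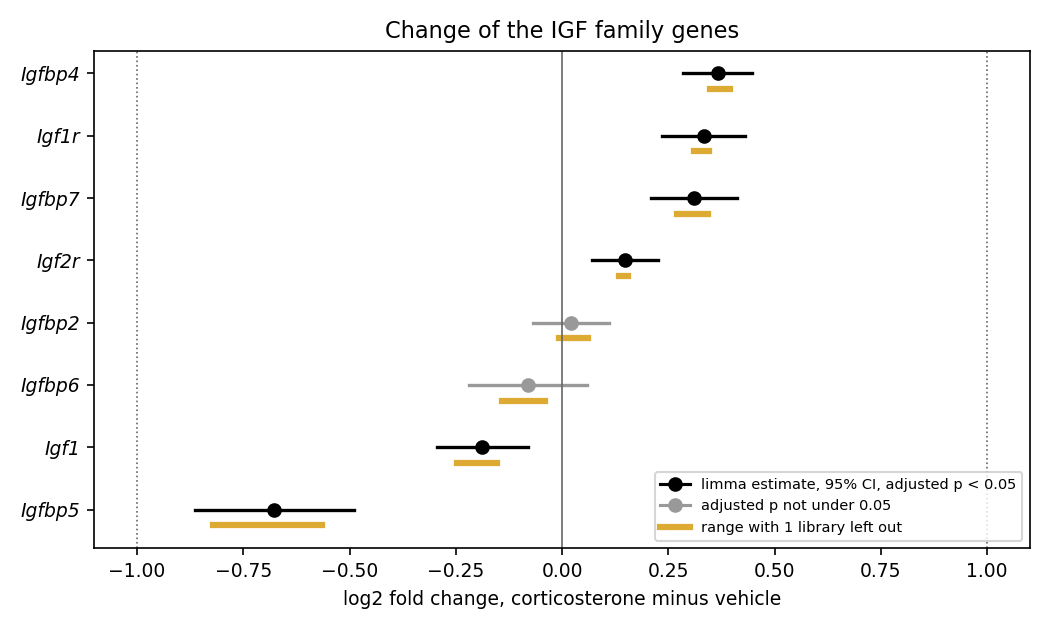
Log2 fold change (x axis, corticosterone minus vehicle) of 8 IGF family genes (y axis) with its 95% confidence interval, and below each interval the range when each of the 6 libraries is left out in turn. Black marks genes with a limma adjusted p under 0.05, grey the others, and the dotted lines at -1 and 1 the fold change of the threshold, which no interval reaches. *Igf2r* and *Igfbp2*, at 0.15 and 0.02 here, turn to -0.0010 and -0.08 after quantile normalization. *Igf2*, with at most 3 reads per library, is not shown.

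Among the ligands, *Igf1* (ENSMUSG00000020053, chromosome 10, 87858265 to 87937042 of GRCm38, plus strand) was well expressed and slightly lower after corticosterone. Its normalized counts were 6124, 5379.6 and 6029 with vehicle and 5223, 4896 and 5257 with corticosterone. The highest corticosterone value lay 123 below the lowest vehicle value, so the groups were separate by a narrow margin. *Igf1* fell by 12.3%, from 5844 ± 405 to 5125 ± 199 (SD, n = 3 per group), or -0.19 with an SE of 0.05 on the log2 scale (adjusted p = 0.016 by limma). The call did not survive the loss of 1 library in 5 of 6 cases, with limma adjusted p = 0.11 without vehicle 1, 0.17 without vehicle 3, and 0.058, 0.11 and 0.075 without corticosterone 1, 2 and 3. When the prior variance was not allowed to vary with level, limma gave an adjusted p = 0.29. The antisense gene *Igf1os* overlaps *Igf1* but shares 0 exon bases with it.

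*Igf2* (ENSMUSG00000048583, chromosome 7, 142650766 to 142666816, minus strand), the fetal growth factor gene that is expressed from the paternal copy, was at the edge of detection. It had 1, 1 and 0 reads with vehicle and 1, 0 and 3 with corticosterone, so no fold change is given, and 63.1% of its 31-base stretches also lie in transcripts of another gene. *H19*, the noncoding RNA gene beside *Igf2* that is expressed from the maternal copy, had normalized counts of 3263, 2818 and 3247 with vehicle and 3109, 2945 and 4105 with corticosterone. The groups overlapped in *H19*, whose log2 fold change was 0.11 (95% confidence interval -0.08 to 0.31). At 2666 reads or more in each library, *H19* was abundant in the same cells in which *Igf2* reached at most 3 reads. However, *Gm49394*, a protein-coding gene on the same strand that was not analysed here, shares 3596 exon bases with *Igf2*, 62.8% of its exon length. How reads in shared bases were counted is not given in the sources used here. Whether this lowered the count of *Igf2* was not tested. The antisense gene *Igf2os*, whose exons share 98 bases with *Igf2*, had at most 4 reads.

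Both receptors were higher after corticosterone on the deposited scale, *Igf2r* not so after quantile normalization. *Igf1r* (ENSMUSG00000005533, chromosome 7, 67952827 to 68233668, plus strand), which encodes the signalling receptor, had 1571, 1576 and 1503 with vehicle and 1959, 1963 and 1934 with corticosterone. The 3 values within each treatment lay close together, and the groups were far apart relative to that spread. The rise was 26.0%, from 1549.9 ± 40.8 to 1952 ± 15.5 (SD, n = 3 per group), or 0.33 with an SE of 0.05 on the log2 scale (adjusted p = 5.4e-05 by limma), and the call held in all 20 alternative fits. *Igf2r* (ENSMUSG00000023830, chromosome 17, 12682406 to 12769664, minus strand), the clearance receptor for IGF-II, had 7021, 7087 and 7113 with vehicle and 7749, 7976.5 and 7786 with corticosterone. Its groups did not overlap, and its rise was 10.8%, or 0.15 with an SE of 0.04 on the log2 scale (adjusted p = 0.0094 by limma). This call depended on scaling, since the log2 fold change was -0.0010 after quantile normalization (limma adjusted p = 0.99) and 0.11 with all libraries scaled to the same total (limma adjusted p = 0.057), and it was also lost with a constant prior variance (limma adjusted p = 0.21). The antisense RNA gene *Airn*, which starts within *Igf2r* on the opposite strand and shares 0 exon bases with it, had 91.0 to 123 with vehicle and 94.7 to 141 with corticosterone. The insulin receptor gene *Insr*, whose product can pair with the IGF-I receptor, had 794 ± 69.8 with vehicle and 784 ± 13.1 with corticosterone (SD, n = 3 per group), and the 95% confidence interval of its log2 fold change ran from -0.15 to 0.13.

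**Figure D2:**
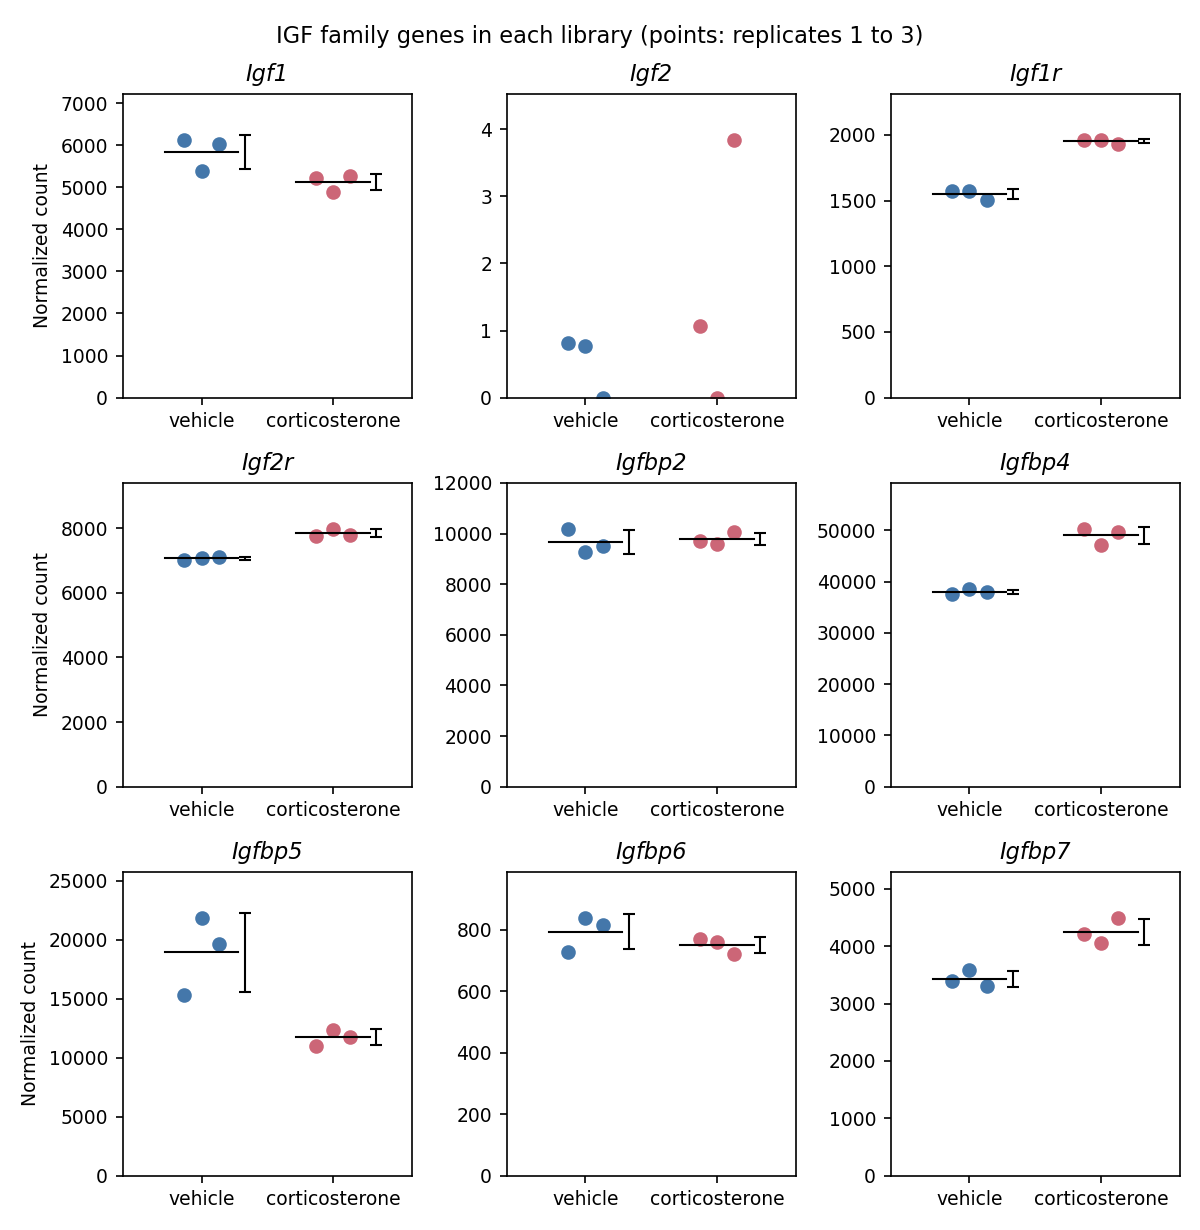
Normalized count (y axis, linear from 0) of 9 IGF family genes in the 3 vehicle and 3 corticosterone libraries (points), with the mean (line) and SD (bar beside it). *Igfbp4*, *Igf1r*, *Igfbp7* and *Igf2r* lie higher and *Igfbp5* and *Igf1* lower in all 3 corticosterone libraries, though *Igf2r* had no rise left after quantile normalization. The call of *Igf1* was lost in 5 of 6 fits with 1 library left out, and that of *Igfbp5* with a constant or a robust prior variance. *Igf2* is shown without mean or SD because it had at most 3 reads per library.

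On the deposited scale the largest rise and the largest fall of the family were in the binding proteins *Igfbp4* and *Igfbp5*, whereas after quantile normalization *Igf1r* and *Igfbp7*, at 0.32 and 0.252 on the log2 scale, rose more than *Igfbp4* at 0.247. *Igfbp4* (ENSMUSG00000017493, chromosome 11, 99041244 to 99054392, plus strand) encodes a binding protein that blocks IGF action in bone cells until it is cut. It ranked 23 of all genes by mean normalized count, with 37595, 38497 and 37931 with vehicle and 50300, 47103 and 49647 with corticosterone. Every corticosterone library lay at least 8606 above every vehicle library. *Igfbp4* rose by 29.0%, from 38008 ± 456 to 49017 ± 1689 (SD, n = 3 per group), or 0.37 with an SE of 0.04 on the log2 scale (adjusted p = 2.5e-06 by limma). Across all 20 alternative fits the call held, with log2 fold changes between 0.25 and 0.39.

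*Igfbp5* (ENSMUSG00000026185, chromosome 1, 72857932 to 72874884, minus strand) encodes a binding protein that attaches to bone mineral and matrix. It had 15307, 21844 and 19621 with vehicle and 11028, 12384 and 11759 with corticosterone. The vehicle libraries spread widely, with vehicle 1 far below the other two, yet its value still exceeded all 3 corticosterone values. *Igfbp5* fell by 38.0%, from 18924 ± 3324 to 11724 ± 679 (SD, n = 3 per group), or -0.68 with an SE of 0.09 on the log2 scale (adjusted p = 2.9e-05 by limma). Vehicle 1 was also the lowest vehicle library in 8 of the 9 osteoblast markers and in 4 of the 9 members. The share over all genes was not counted, and the gap was small in some markers, such as *Sparc*. Among the 8 was *Spp1*, which rose with corticosterone, while *Col1a1* was lowest in vehicle 2. Without vehicle 1 the log2 fold change of *Igfbp5* was -0.82. With any library left out the limma adjusted p was at most 0.022, but it was 0.085 with a constant prior variance and 0.055 with a robust one.

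*Igfbp2* (ENSMUSG00000039323, chromosome 1, 72824503 to 72852474, plus strand) lies beside *Igfbp5*, with the 3′ ends of the genes facing each other across 5457 bases. The neighbours did not move alike. *Igfbp2* had 10184, 9258 and 9515 with vehicle and 9715, 9600.1 and 10055 with corticosterone, with the vehicle range enclosing the corticosterone range. Its log2 fold change was 0.02, with a 95% confidence interval from -0.07 to 0.11, which does not include a change of the size seen in *Igfbp5*. Its sign turned with scaling, to -0.08 after quantile normalization and -0.02 at the same total, and it was called in 0 of the 20 alternative fits.

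The promoters of *Igfbp4*, *Igfbp5* and *Igfbp2* are shown because these are the largest rise and the largest fall on the deposited scale and the neighbour that was not called. Each is the 250 bases before the RefSeq start (GRCm38.p6), 5′ to 3′ on the strand of the gene, at chr11:99040994-99041243 (plus strand), chr1:72874866-72875115 (minus strand) and chr1:72824230-72824479 (plus strand), and capitals mark matches to the motifs described next.
Igfbp4: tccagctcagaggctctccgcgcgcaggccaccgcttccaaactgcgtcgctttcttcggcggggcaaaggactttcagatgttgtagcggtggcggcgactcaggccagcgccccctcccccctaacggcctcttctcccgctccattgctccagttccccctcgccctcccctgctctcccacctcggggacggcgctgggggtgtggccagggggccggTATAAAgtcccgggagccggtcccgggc
Igfbp5: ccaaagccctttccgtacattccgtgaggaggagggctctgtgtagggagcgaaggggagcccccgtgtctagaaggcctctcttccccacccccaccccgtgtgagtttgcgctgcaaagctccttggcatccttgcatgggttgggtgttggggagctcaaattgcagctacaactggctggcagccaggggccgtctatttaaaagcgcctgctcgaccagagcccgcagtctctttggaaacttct
Igfbp2: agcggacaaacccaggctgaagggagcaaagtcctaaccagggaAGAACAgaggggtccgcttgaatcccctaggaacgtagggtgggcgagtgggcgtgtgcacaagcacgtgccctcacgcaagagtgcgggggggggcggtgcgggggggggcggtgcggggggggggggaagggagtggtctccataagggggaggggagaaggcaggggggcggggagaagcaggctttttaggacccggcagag

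The 2 motifs searched on both strands were AGAACA, which reads TGTTCT on the opposite strand and is the repeated unit of the glucocorticoid response element, and TATAAA, which reads TTTATA on the opposite strand and is the core of the TATA box. The hexamer AGAACA or its complement is present in 16.1% of the 32851 RefSeq mouse promoters of the same length, and TATAAA or its complement in 12.4%. All 9 members were matched, with 13 promoters. The first motif was found in 1 of the *Igf2* promoters and, 206 bases before the start, in 1 of the *Igfbp2* promoters, neither of them a called gene. It was found in 0 promoters of the 6 called members. *Igfbp4* holds TATAAA beginning 28 bases before its start, and *Igfbp6* holds its complement 148 bases before. The windows of *Igfbp4* and *Igfbp5* have a GC content of 69.2% and 58.8%, and the median over all promoters is 52.4%. A match describes letters in a short window, and no match says only that these letters are not in it.

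*Igfbp7* (ENSMUSG00000036256, chromosome 5, 77349240 to 77408041, minus strand) encodes a secreted protein that binds IGFs weakly and insulin more strongly. It had 3393, 3588 and 3307 with vehicle and 4208, 4054.5 and 4494 with corticosterone. All corticosterone values were above all vehicle values. The rise was 24.0%, from 3429 ± 144 to 4252 ± 223 (SD, n = 3 per group), or 0.31 with an SE of 0.05 on the log2 scale (adjusted p = 0.00017 by limma), and the call was lost in 1 of the 20 alternative fits, that with a constant prior variance (limma adjusted p = 0.087). On the opposite strand *Polr2b* shares 85 exon bases with it, 7.03% of its exon length, and whether the counting used strand is not given in the sources used here. *Polr2b* had means of 2017 with vehicle and 2138 with corticosterone.

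*Igfbp6* (ENSMUSG00000023046, chromosome 15, 102144362 to 102149511, plus strand) encodes the binding protein that prefers IGF-II. Its values were 729, 839 and 816 with vehicle and 769, 762 and 722 with corticosterone, and the groups overlapped. The log2 fold change was -0.08, with a 95% confidence interval from -0.22 to 0.06, and it was called in 0 of the 20 alternative fits.

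Levels of different members were compared per kilobase of annotated exon, as normalized count per kilobase. With vehicle the order was *Igfbp4* (8607 ± 103), *Igfbp2* (5226 ± 259), *Igfbp5* (3151 ± 553), *Igfbp7* (2836 ± 119), *Igf2r* (759.97 ± 5.08), *Igfbp6* (715 ± 52.2), *Igf1* (590.1 ± 40.9), *Igf1r* (92.3 ± 2.43) and *Igf2* (SD, n = 3 per group). The ranges of *Igfbp5* and *Igfbp7* overlapped, as did those of *Igf2r* and *Igfbp6*, so these neighbours did not differ beyond the spread between libraries. With corticosterone no neighbours overlapped, and *Igfbp7* (3517 ± 185) stood above *Igfbp5* (1952 ± 113). The lengths matter, since with the longest transcript in place of all exons *Igf1* came to 829 with vehicle, above *Igf2r* at 796. In either treatment the signalling receptor was the least abundant member apart from *Igf2*.

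**Figure D3:**
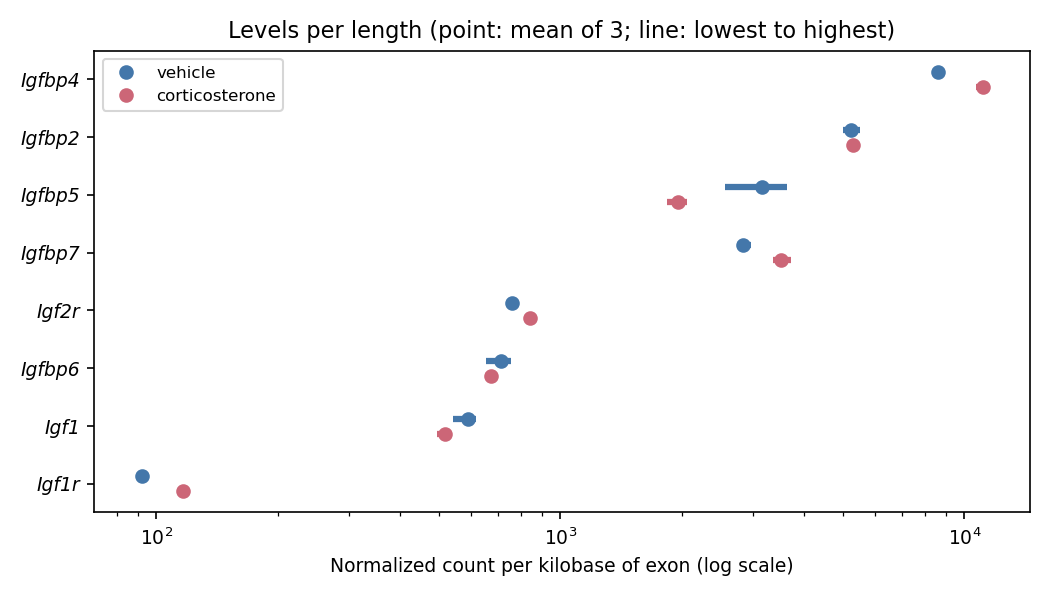
Normalized count per kilobase of exon (x axis, log scale) of 8 IGF family genes (y axis), with the mean of 3 libraries as a point and the lowest to highest library as a line. *Igfbp5* and *Igfbp7* change places between vehicle, with means of 3151 and 2836, and corticosterone, with 1952 and 3517.

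Together the 5 binding protein genes came to 20038, 21089 and 20477 normalized counts per kilobase with vehicle and 22658, 21965 and 23011 with corticosterone. Per kilobase, the corticosterone sums were all above the vehicle sums. Not divided by length, the normalized counts summed to 67208, 74026 and 71189 with vehicle and 76019, 73904 and 76677 with corticosterone. These groups overlapped, so the separation depended on the weighting by length. *Igfbp4* made up 42.5%, 41.3% and 41.9% of the sum per kilobase with vehicle and 50.3%, 48.6% and 48.9% with corticosterone. The share of *Igfbp5* was 12.7%, 17.2% and 16.0% with vehicle and 8.10%, 9.39% and 8.51% with corticosterone. The mean share of *Igfbp4* differed by 7.31 percentage points between the treatments and that of *Igfbp5* by -6.64. *Igfbp7* went from 13.8% ± 0.395 to 15.6% ± 0.487, *Igfbp2* from 25.5% ± 1.90 to 23.5% ± 0.258 and *Igfbp6* from 3.48% ± 0.178 to 3.00% ± 0.157 (SD, n = 3 per group). Shares sum to 100% in each library, so they cannot move independently, and they were not tested. Without vehicle 1 the difference of *Igfbp2* was -0.951 points in place of -1.97.

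**Figure D4:**
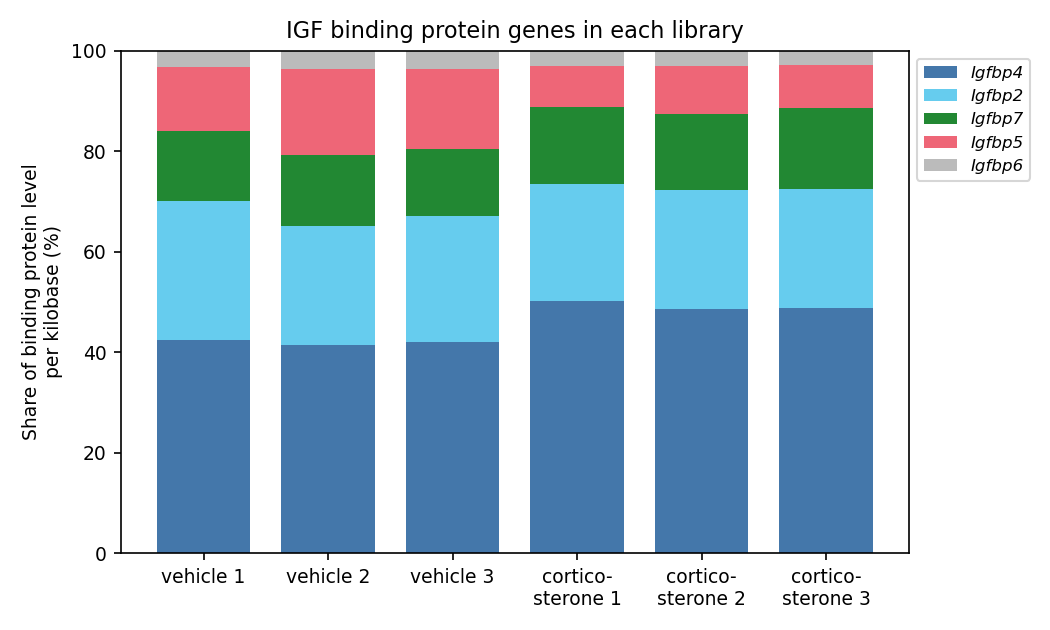
Share of each of 5 binding protein genes in their summed level per kilobase (y axis, percent) in each of the 6 libraries (bars). *Igfbp4* rises from about 42% to about 49% and *Igfbp5* shrinks from 15.3% to 8.67% on average.

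Genes that handle IGFs outside the cell formed the first of 3 pathway lists, with 7 of its 12 genes analysed. On the adjusted p, 2 of the 7 were higher and 1 was lower, where 8.49% of all genes were higher and 8.2% lower. All 7 had a mean of at least 10, and of genes with such a mean 14.2% were higher and 13.5% lower. A further 4 were not called, with 0 past the threshold and a median log2 fold change of -0.01 over the list. *Adam9*, a membrane protease able to cut IGFBP-5, rose from 1659 ± 49.0 to 2404 ± 48.6 (SD, n = 3 per group), or 0.54 on the log2 scale (adjusted p = 2.6e-07 by limma). *Adam12*, which cuts IGFBP-3 and IGFBP-5, rose by 0.19 (limma adjusted p = 0.0058). *Pappa2*, a secreted protease that cuts the same pair, had 15021, 12965 and 14504 with vehicle and 12136, 11205 and 12590 with corticosterone, or -0.24 on the log2 scale (adjusted p = 0.0044 by limma). Per kilobase *Pappa2* reached 1376 with vehicle, compared with 115 for *Pappa*, which encodes a protease able to cut IGFBP-4, among others. *Pappa* itself had a log2 fold change of 0.05, with a 95% confidence interval from -0.11 to 0.20.

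Of the 25 listed genes of receptor signalling, 23 were analysed. On the adjusted p, 5 of the 23 were higher and 9 lower, beside 8.49% and 8.2% of all genes and 14.2% and 13.5% of those with a mean of at least 10. A further 9 were not called and 0 were past the threshold, with a median log2 fold change of -0.11. The substrate adaptors *Irs1* and *Irs2* moved in opposite directions, *Irs1* from 2156 ± 157 to 1556 ± 39.4 (log2 fold change -0.47, limma adjusted p = 9.4e-06) and *Irs2* from 1491 ± 92.1 to 1945 ± 112 (SD, n = 3 each, log2 fold change 0.38, limma adjusted p = 0.00011). Among the subunits of phosphoinositide 3-kinase, *Pik3r1* rose by 0.40 (limma adjusted p = 7.0e-06) and *Pik3cb* by 0.41, while *Pik3r3* changed by -0.39 on the log2 scale. The lower calls over all 3 lists, 12 in number, came to 5 without vehicle 3, 6 without corticosterone 2 and 7 without corticosterone 3.

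Genes known to act on IGF transcripts made up the third list, all 14 of them analysed. On the adjusted p, 5 were higher and 2 lower, against the same 8.49% and 8.2% of all genes, and 7 were not called. All but *Igf2os* had a mean of at least 10, and of genes with such a mean 14.2% were higher and 13.5% lower. The median log2 fold change was 0.15 over the 13 genes other than *Igf2os*. The transcription factors that carry the growth hormone signal to *Igf1* were higher. *Stat5a* went from 663 ± 35.0 to 1188 ± 49.9 (SD, n = 3 per group), or 0.84 on the log2 scale (adjusted p = 2.8e-08 by limma), and *Stat5b* rose by 0.53 (limma adjusted p = 3.7e-06). Their kinase *Jak2* rose by 0.22 (limma adjusted p = 0.011) and the growth hormone receptor gene *Ghr* changed by -0.22 (limma adjusted p = 0.023). *Cebpb*, which encodes a factor that binds the *Igf1* promoter, rose by 0.50 (limma adjusted p = 5.1e-06), and *Cebpd* was not called, with 0.06. The receptor for parathyroid hormone, a hormone that raises IGF-I output of osteoblasts, was the 1 gene of the 3 lists past the threshold, *Pth1r* having changed by -1.30 on the log2 scale (limma adjusted p = 5.2e-09). *Igf2bp2*, which encodes an RNA-binding protein named for *Igf2* messenger RNA, rose by 0.46 (limma adjusted p = 0.0013).

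The patterns most like those of *Igfbp4* and *Igfbp5* on the deposited scale were sought by the mean absolute difference of log2 values over the 6 libraries, each gene centred on its vehicle mean, among 13872 genes with a mean of at least 10. Closest to *Igfbp4* were *Glrx5*, *Capzb* and *St3gal2*, at 0.018 to 0.019, with 919 genes within 0.1. Closest to *Igfbp5* were *Lyn* at 0.027, *Hivep2* at 0.051 and *Tmem131l* at 0.059, with 32 genes within 0.1.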

How the data were processed

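Gene symbols of the members and all gene lists were chosen with earlier results of these data known. The authors sequenced the libraries commercially on an Illumina platform, and the genome build is mm10 per the labels. The aligner, counting program and strand setting are not given in the sources used here. The authors deposited 1 signal value per gene and library, named FPKM, which is a read count divided by 1 size factor per library. Dividing by the value of 1 read returned a whole number in 100% of cases, within 0.02 reads.

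The main test was limma 3.58.1 in R 4.3.3 (variance trend) on log2(normalized count + 0.1), after a filter on a mean below 0.1 that removed 0 genes, with Benjamini-Hochberg adjustment. The design assumed FPKM and was kept as written. Fold changes are on that log2 scale. In counts simulated for this comparison over 24016 genes, 200 with a log2 change of 2, limma recovered 190 with 0 false calls. The changed genes had a mean of at least 10, the dispersion was 0.02, and only calls past the threshold were scored. Every member changed by less than the simulated amount, so the simulation cannot speak to calls on the adjusted p alone. Alternatives were other pseudocounts, filters, scalings and prior variances, the replicate block and each library left out. Further alternatives were edgeR 4.0.16 and DESeq2 1.42.0 on whole reads. Past the threshold, edgeR placed 283 higher and 271 lower and DESeq2 269 higher and 245 lower, compared with 331 and 337 by limma. The study used DESeq2 and reported 269 upregulated and 245 downregulated genes. P-values measure the spread between the samples of 1 cell line, called biological replicates in the study's methods. Libraries of the same treatment differed by more than sampling noise (chi-square per degree of freedom at least 3.38). Reads and floors cover counting error only.

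The genes named are the members, list genes past the threshold or with the 3 smallest adjusted p-values per list, neighbours that overlap a member, *Tsc22d3* and *Fkbp5*, and the 3 nearest patterns. 1 gene that the rule names is not reported here. Other list genes and markers were named after their values were seen. Coordinates and lengths came from GENCODE M21 (GRCm38), which gave symbols for 23983 genes, and promoters from RefSeq. Tables were made with Python 3.11.15.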

Additional observations from a re-analysis of the deposited data

How the results depend on the processing

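Each library had 4109 to 7552 reads of *Igf1* and 564 to 1087 of *Igfbp6*, while *Igf2* had at most 3. No member passed the threshold in any of the 20 alternatives, of which 1, without the filter on low values, repeats the main fit. *Igfbp4* and *Igf1r* kept an adjusted p under 0.05 in all of them. Of the 6 called members, 2 kept it without a variance trend, where 2 were higher and 0 lower, and 1 was lower with a robust prior variance. With 1 library left out, 1 to 2 members were lower. The cause of these losses was not tested. *Igf2r* reversed to -0.0010 with quantile normalization, and *Igfbp2* to -0.083 with quantile normalization and -0.020 at the same total, and leaving out 1 library gave -0.0082 (without vehicle 2) to 0.061. Over the 3 pathway lists, 12 genes were higher and 12 lower on the adjusted p. These numbers were 5 and 4 without a variance trend, while 6 were lower by DESeq2 with the replicate block and 5 to 9 with 1 library left out. Of all genes, 337 were lower past the threshold, 198 by DESeq2 with the replicate block and 204 to 321 with 1 library left out. On the adjusted p alone, 873 were higher and 760 lower without a variance trend, 1254 were lower by DESeq2 with the replicate block and 1148 to 1611 with 1 library left out. Scaling to the same total gave 1703 higher and 2521 lower, compared with 2040 and 1970. The differences in binding protein share between treatments moved by less than the SD pooled over both treatments with the longest transcript as length or any library left out, but the shares themselves depend on length, that of *Igfbp2* with vehicle being 25.5% by exons and 30.8% by longest transcript.

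Both groups carry replicate numbers 1 to 3, which the labels do not say are paired. Deviations from the group means of libraries with the same number correlated at -0.044, 0.0014 and 0.023 over 13880 genes. With the replicate number as a block, the members stayed at 4 higher and 2 lower, and past the threshold stood 297 higher and 294 lower of all genes. The block changed no call of a member with limma, edgeR or DESeq2.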

Other observations

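Ratios between genes of the same library do not depend on the factor by which a library was divided. The ratio of *Igfbp4* to *Igfbp5* normalized counts was 2.46, 1.76 and 1.93 with vehicle and 4.56, 3.80 and 4.22 with corticosterone. The ratio of *Irs1* to *Irs2* was 1.25, 1.57 and 1.54 with vehicle and 0.795, 0.845 and 0.764 with corticosterone. Neither pair of ranges overlapped, which follows from the 2 genes of each ratio moving in opposite directions without overlap between groups. Vehicle 1 was the vehicle library nearest to the corticosterone values in both. These ratios were chosen after their values were seen and were not tested.

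In vehicle 1, *Igfbp5* stood at 15307 and *Alpl*, which encodes the alkaline phosphatase of mineralizing osteoblasts, at 1246, where the other vehicle libraries had 21844 and 19621 for *Igfbp5* and 1683 and 1671.5 for *Alpl*. *Ibsp*, the bone sialoprotein gene, was at 600.1 in vehicle 1 and at 759 and 826 in the others. *Spp1*, which rose with corticosterone, was also lowest in vehicle 1, at 99097, whereas *Col1a1* was lowest in vehicle 2. These genes were picked after their values were seen, and a link to *Igfbp5* was not tested.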
